A study of Mus musculus with 6 samples.

Results

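Transcripts of 10 subunits of the SWI/SNF chromatin remodelling complexes were examined in microglia of the rostral nucleus of the solitary tract (NST), the brainstem relay for taste, among 26789 genes measured. The genes were Smarca4, Smarca2, Smarcb1, Smarcc1, Arid1a, Arid1b, Pbrm1, Brd9, Bicral and Bicra. The group was chosen by a value of 0 for Bicra in 2 of the 3 low-sodium libraries, and the other 9 genes were added as subunits of the same family of complexes. Values of Bicra in the diet comparison are therefore a description only, were not tested, and support nothing. All 10 genes passed the filter on low values, a mean of 10 or more normalized counts across the 6 libraries, which 18007 genes passed in all.

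The study asked whether a maternal diet low in sodium changes gene expression in microglia of the offspring. E3–E12 diet mice were offspring of dams that received a low-sodium diet from E3 to E12 and standard chow afterwards, and controls were C57Bl/6 mice kept on standard chow throughout. Microglia were collected at P15, and each of the 3 libraries per group pooled the rostral NST of 6 littermates from a litter of its own. The isolation is given as CD11b magnetic sorting in the study's methods and as laser microdissection in the description deposited with the data, and which of them was used is uncertain. Library totals, in replicate order as throughout, were 9671119, 17204618 and 11910787 normalized counts for controls and 9407141, 11192984 and 14656956 for E3–E12 diet mice, and how many counted reads lie behind a value is not given in the table.

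SWI/SNF complexes use ATP to slide or evict nucleosomes and so open DNA to transcription factors. They are assembled in 3 forms around a shared ATPase: canonical BAF, which holds an ARID1 subunit, PBAF, which holds PBRM1, ARID2 and BRD7, and GBAF, also called non-canonical BAF, which holds BRD9 and either BICRA or BICRAL and lacks SMARCB1. In macrophages these complexes are known for opening chromatin at inducible inflammatory genes.

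The labelled cell type was checked against marker genes. All 16 microglial markers were above 0 in all 6 libraries, and they summed to 124126, 585576 and 336416 normalized counts among controls and 115782, 291338 and 395522 among E3–E12 diet mice. Csf1r, the receptor that microglia need for survival, was the most abundant of them, from 48984 to 280071 normalized counts. Markers of other brain cells were also present. The 9 oligodendrocyte markers, of which Mbp was the most abundant by the mean of the 6 libraries, summed to 44771, 17559 and 5197 among controls and 17796, 25005 and 6103 among E3–E12 diet mice, and Mag was listed at 0 in control replicate 3 and in every E3–E12 diet library. The 10 neuronal markers, with Snap25 the most abundant by that mean, summed to 2202, 1201 and 1139 among controls and 2522, 1527 and 997 among E3–E12 diet mice, with Rbfox3, Stmn2 and Syt1 listed at 0 in control replicate 2 and Slc17a6 in control replicate 3 and E3–E12 diet replicate 3. The 6 choroid plexus markers, with Ttr the most abundant by that mean, summed to 7623, 582 and 18864 among controls and 41318, 78.7 and 520.1 among E3–E12 diet mice, with Folr1 at 0 in control replicate 2 and Aqp1 and Clic6 at 0 in E3–E12 diet replicate 2.

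Control replicate 2 stood apart from the other libraries. It had the highest total, the highest microglial sum, and the most genes listed at 0, with 10640 against 3459 to 7135 elsewhere. Its 8 astrocyte markers summed to 1835 against 4821 to 9877 in the other libraries, with Aldh1l1 and Gfap at 0. Slc1a2, the most abundant of them by the mean of the 6 libraries, was at 211 there, while Slc1a3 at 1420 was second highest of the 6 libraries and S100b at 96.7 was within the range of the others. The sums over markers of blood vessel cells were lowest there as well. Its 5 mural cell markers, led by Rgs5, summed to 608 against 5935 to 14244, with Kcnj8 at 0. Its 8 endothelial markers summed to 5318 against 9183 to 15134, and none was at 0. The single endothelial genes did not all follow the sum: Flt1, the most abundant by the mean, was at 95.4 in control replicate 2, while Pecam1 (3154) and Cldn5 (1207) had their highest values there. Markers of other myeloid and blood cells were highest in this library by their sums. The 6 border macrophage markers, led by Mrc1, summed to 17396 against 4693 to 8560 elsewhere, with none at 0, and the 8 erythroid and neutrophil markers, led by S100a9, to 3016 against 502 to 661, with Hba-a1 at 0. Single genes did not all follow, since 4 of the 6 border macrophage markers and none of the erythroid genes Hba-a1, Hbb-bs and Alas2 had their highest value there. Of the 9 subunits other than Bicra, 6 had their highest value in this library, and 5 had their lowest in E3–E12 diet replicate 1, the library with the lowest total and the lowest microglial sum. The 9 subunits together made up 21396, 54076 and 23788 normalized counts among controls and 19491, 27245 and 34857 among E3–E12 diet mice. This was 0.221%, 0.314% and 0.20% of the total in the controls and 0.207%, 0.243% and 0.238% in E3–E12 diet mice. The part of cell composition in the subunit values was not tested, and in bulk samples fewer cells of a type and less RNA per cell cannot be told apart.

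Bicra encodes the scaffold subunit that defines GBAF and competes with its paralog BICRAL for a place in the complex. Its normalized counts were 1383, 2868 and 1924 among controls, in the order of the replicates, and 0, 0 and 1086 among E3–E12 diet mice. E3–E12 diet replicate 3, the single library of its group above 0, lay below the lowest control. The gene was therefore well above the filter in 4 libraries and listed at 0 in the remaining 2. A listed 0 is not read here as an absent transcript. Ribosomal protein genes also had such values, and whether their zeros and those of Bicra arose alike was not tested. The table's name mentions sva, and no source used here says whether values were adjusted for surrogate variables, which was not tested, so what a listed 0 stands for is uncertain. Of 79 ribosomal protein genes, 4 were listed at 0 in control replicate 2 (Rpl18, Rpl36, Rps12l1 and Rps26), and Rps26 was also at 0 in E3–E12 diet replicate 2. In E3–E12 diet replicate 1, where Bicra was at 0 as well, 0 of the 79 were listed at 0. Zeros beside high values occurred in every library, since 49 of the tested genes had at least 1000 normalized counts in 1 library and 0 in another.

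Among the 18007 tested genes, 3575 had a 0 in some library and 19, Bicra included, were listed at 0 in exactly the same 2 libraries as Bicra. Of these 19, Bicra alone reached 1000 normalized counts in any other library. In all, 72 genes were listed at 0 in exactly 2 E3–E12 diet libraries and in no control, and 53 in exactly 2 control libraries and in no E3–E12 diet library. When any number of zeros was allowed, 467 genes had them in E3–E12 diet mice alone and 1876 in controls alone, so zeros in a single group were more frequent in the group that holds control replicate 2.

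The 5 genes whose log2 levels, centred on their own mean, lay nearest to those of Bicra over the 6 libraries were 4921514A10Rik, AU020206, Pcdh9, Thap2 and Cbl. Their root mean square differences from Bicra were 2.004, 2.31, 2.36, 2.77 and 2.80 on the log2 scale. This measure favours genes at or near 0 where Bicra was at 0, so the list is a description and supports nothing. 4921514A10Rik, the closest, had 91.4, 473 and 72.3 normalized counts among controls and 0, 0 and 40.7 among E3–E12 diet mice. Pcdh9, a protocadherin, had 87.4, 155 and 20.97 among controls and 0, 0 and 61.5 among E3–E12 diet mice. AU020206 and Cbl were also at 0 in both libraries in which Bicra was, while Thap2 had 3.4 and 0 there. The heights of the other 4 libraries differed from gene to gene.

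Bicra (ENSMUSG00000070808) lies on the minus strand at chr7:15970672-16047921 of GRCm38, with 4 annotated transcripts and 7941 exonic bases in 13 segments. Of its exonic bases 1.11% overlap Gm38948, a gene on the opposite strand, and 1.38% of its 50-base windows occur in transcripts of other genes, so few of its reads could be shared with another annotated gene. Bicral (ENSMUSG00000036568) lies on the minus strand at chr17:46798120-46858482, with 6851 exonic bases. For Bicral 11.3% of the exonic bases overlap Gm26904, which is transcribed from the opposite strand. Gm26904 had 127, 549.7 and 108 normalized counts among controls and 188, 178 and 179.8 among E3–E12 diet mice, and like Bicral it was highest in control replicate 2. How the counting treated strand is not given in the sources used here, so reads of Bicral and Gm26904 in the overlap cannot be told apart.

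**Figure D1:**
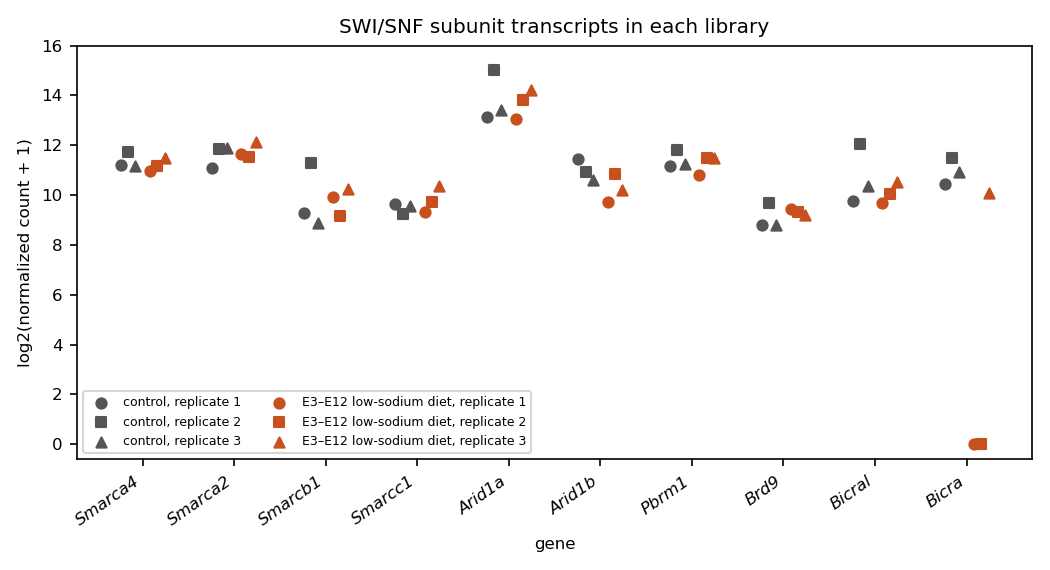
Levels of the 10 SWI/SNF subunit genes in each library, on the scale log2(normalized count + 1), with controls in grey and E3–E12 diet mice in orange and a marker shape for each of the 3 replicates. Bicra, at the right, is at 0 in E3–E12 diet replicates 1 and 2, while the other 9 genes are above 0 in all 6 libraries and their groups overlap.

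Bicral, the paralog of Bicra, and Brd9, also of GBAF, were above 0 in all 6 libraries. Bicral had 868, 4179 and 1308 normalized counts among controls and 819, 1041 and 1449.9 among E3–E12 diet mice. The groups overlapped, and control replicate 2 stood far above the other 5 libraries. Its log2 fold change, E3–E12 diet minus control on the log2(normalized count + 1) scale, was -0.65 (standard error 0.76) and became 0.01 without control replicate 2. Brd9, the bromodomain subunit of GBAF, had 444, 829 and 439.7 among controls and 702, 644 and 587 among E3–E12 diet mice, again with overlap through control replicate 2. The difference was 0.24 (standard error 0.57), and 0.54 without that library, where the remaining groups no longer overlapped, but 0.08 without control replicate 3 and 0.09 without control replicate 1.

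The levels of the ATPases overlapped between diets. Smarca4, which encodes BRG1, had 2372, 3385 and 2277 normalized counts among controls and 2004, 2277 and 2886 among E3–E12 diet mice. Smarca2, which encodes the alternative ATPase BRM, had 2160.4, 3731 and 3822 among controls and 3174, 2949.8 and 4438 among E3–E12 diet mice. For both genes the ranges of the groups overlapped over most of their width. The log2 fold changes were -0.16 for Smarca4 and 0.14 for Smarca2, with standard errors of 0.55 and 0.57. Both signs changed with a library left out: Smarca4 was at 0.02 when control replicate 2 was left out, and Smarca2 at -0.13 when control replicate 1 was left out and at -0.04 when E3–E12 diet replicate 3 was.

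Since a complex holds a single ATPase, the pair was also compared per kilobase of annotated exon, the scale on which levels of different genes are compared here. The ratio of Smarca2 to Smarca4 in normalized counts per kilobase was 0.413, 0.50 and 0.762 among controls and 0.719, 0.588 and 0.698 among E3–E12 diet mice. It was below 1 in all 6 libraries, and the groups overlapped. The 46 annotated transcripts of Smarca2 give it 14269 exonic bases against 6475 for Smarca4, which lowers its value on this scale if the long forms are not made in these cells. Without the division by exon length the ratio was 0.911, 1.10 and 1.68 among controls and 1.58, 1.30 and 1.54 among E3–E12 diet mice, above 1 in 5 libraries, so which of the pair is more abundant is uncertain.

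Both genes have promoter sequences that are rich in CpG, a feature shared by the subunits for which a sequence was at hand. RefSeq promoters of GRCm38.p6, each of 300 bases around a transcript start, were matched for 8 of the 10 genes, all but Bicra and Bicral, and gave 10 sequences. They held 22 to 42 CpG dinucleotides, searched as CG, which reads the same on both strands, with a median of 34 against 7 over all 32851 promoter sequences, of which 94.6% hold at least 1. The promoters of the paired ATPases are shown with each CG in capitals. That of Smarca4, at chr9:21615919-21616218 on the plus strand, holds 33, more than 91.4% of all promoters, and that of Smarca2, at chr19:26604910-26605209 on the plus strand, holds 29, more than 87.1%.
Smarca4: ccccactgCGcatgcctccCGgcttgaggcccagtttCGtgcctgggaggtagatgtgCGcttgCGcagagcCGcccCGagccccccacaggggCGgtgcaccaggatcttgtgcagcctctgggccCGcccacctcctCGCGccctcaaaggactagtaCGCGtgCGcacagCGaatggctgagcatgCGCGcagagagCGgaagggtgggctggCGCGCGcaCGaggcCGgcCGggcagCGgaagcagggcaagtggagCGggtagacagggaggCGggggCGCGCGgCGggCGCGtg
Smarca2: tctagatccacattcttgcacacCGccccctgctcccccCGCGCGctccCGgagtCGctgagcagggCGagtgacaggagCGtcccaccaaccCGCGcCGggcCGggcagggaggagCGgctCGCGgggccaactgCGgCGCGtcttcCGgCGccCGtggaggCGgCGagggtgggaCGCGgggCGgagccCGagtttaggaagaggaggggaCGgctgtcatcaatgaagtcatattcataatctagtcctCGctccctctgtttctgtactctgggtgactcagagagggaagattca

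Levels of the core subunits that brace the ATPase also overlapped between diets. Smarcb1, which anchors the complex to the nucleosome, had 618, 2508 and 472 normalized counts among controls and 958, 563 and 1215 among E3–E12 diet mice. All E3–E12 diet values lay within the span of the controls. Its log2 fold change was -0.05 (standard error 0.82), and it changed sign to 0.68 without control replicate 2 and to 0.26 when E3–E12 diet replicate 2 was left out. Smarcc1, which encodes the scaffold BAF155, had 788, 604 and 760.4 among controls and 630.1, 846 and 1318 among E3–E12 diet mice. Its log2 fold change of 0.32 was below its standard error of 0.57. Without E3–E12 diet replicate 1 its groups no longer overlapped, at a log2 fold change of 0.57, but without E3–E12 diet replicate 3 it was 0.04. Its paralog Smarcc2, which encodes BAF170, was the more abundant of the pair per kilobase in all 6 libraries, with a ratio of Smarcc1 to Smarcc2 of 0.228, 0.121 and 0.175 among controls and 0.268, 0.238 and 0.222 among E3–E12 diet mice.

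The ARID1 subunits define canonical BAF and are found in it in turn. Arid1a had 9041, 33313 and 10748 normalized counts among controls and 8560.3, 14211 and 18902 among E3–E12 diet mice. Control replicate 2 was the highest library, and the E3–E12 diet values reached from below the lowest control to between the upper controls. Arid1a had a log2 fold change of -0.17 (standard error 0.74), which changed sign to 0.42 without control replicate 2 and to 0.15 without E3–E12 diet replicate 1. Arid1b had 2802, 1919 and 1551 among controls and 840.1, 1832 and 1170.2 among E3–E12 diet mice. E3–E12 diet replicate 2 lay between the controls and the other E3–E12 diet libraries lay below all of them. Its log2 fold change of -0.74 (standard error 0.60, 95% interval -2.18 to 0.71) was the lowest among the 9 subunits other than Bicra, with an unadjusted p of 0.264 and an adjusted p of 0.999 from limma. Once control replicate 3 or E3–E12 diet replicate 2 was left out, the groups no longer overlapped, at log2 fold changes of -0.93 and -1.03. It was nearer to 0 when E3–E12 diet replicate 1 (-0.47) or control replicate 1 (-0.50) was left out.

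The balance of the ARID1 pair shifted widely between libraries. Per kilobase, Arid1a exceeded Arid1b by a ratio of 3.54, 19.1 and 7.61 among controls and 11.2, 8.52 and 17.7 among E3–E12 diet mice. Arid1a was higher in all 6 libraries, and the ratios of both diets spread over much of the same range. The pairs compared per kilobase were chosen after the values had been seen, and no test was made of them.

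Pbrm1 encodes the subunit with several bromodomains that marks PBAF. It had 2303, 3608 and 2409 normalized counts among controls and 1804, 2882 and 2891 among E3–E12 diet mice. The groups overlapped, and the log2 fold change was -0.14 with a standard error of 0.57. Leaving out control replicate 2 turned it to 0.07, and leaving out E3–E12 diet replicate 1 to 0.09.

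Across the 10 genes the order of levels per kilobase, by the median over 6 libraries, was Arid1a (1087 normalized counts per kilobase), Smarca4 (359), Pbrm1 (299), Smarca2 (242), Bicral (171), Bicra (155), Arid1b (134), Smarcb1 (99.4), Smarcc1 (98.9) and Brd9 (88.6). The place of Bicra includes the zeros that chose the group, so nothing is read from it. Per kilobase Bicra had 174, 361 and 242 among controls and 0, 0 and 137 among E3–E12 diet mice. Arid1a ranged from 746 to 2903, above the highest value of Smarca4 at 523. Every other neighbour in this order overlapped the next, so their order is not resolved by these libraries. The scale divides by the exons of all annotated transcripts together, such as 7930 bases for Smarcb1 and 6949 for Brd9. Which forms are made in these cells was not tested, so the order may also depend on the annotation. Spread also differed by gene. The highest library exceeded the lowest 5.31-fold for Smarcb1, 5.11-fold for Bicral and 3.89-fold for Arid1a, but 1.69-fold for Smarca4 and 1.89-fold for Brd9.

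The diet comparison was made with limma across all 18007 genes (two-sided, Benjamini-Hochberg adjustment). The threshold was an adjusted p of 0.1, which the study used with DESeq2, a different test. None passed it (0 genes, 0% of those tested), the smallest adjusted p was 0.225, and an unadjusted p under 0.05 was found for 327 genes (1.82%). Of the 9 subunits other than Bicra, 0 passed either rule, their smallest unadjusted p was 0.264, for Arid1b, and each had an adjusted p of 0.999. Groups without overlap were found for 1062 genes (5.9%), of which the higher ones under the low-sodium diet were 2.99% and the lower ones 2.91% of those tested, and among the 10 subunits in 1, Bicra, from which nothing is read because its values chose the group. Of the 9 others, 3 had a log2 fold change above 0 and 6 below 0, from -0.74 for Arid1b to 0.32 for Smarcc1. The median was -0.14 over the 9, beside 0.09 over all genes tested. It moved to 0.05 with quantile normalization, to 0.20 without control replicate 2 and to 0.09 without E3–E12 diet replicate 1, so no direction can be given for the 9. The median standard error of the 9 was 0.57, against 0.85 over all genes, and a difference of that size in a single subunit could not be told from 0 with 3 libraries per group. With quantile normalization 2 of the 9 were below 0, with equal library totals 5, and when control replicate 2 was left out 1, Arid1b.

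Marker lists were also compared between diets, and 0 of their genes passed the adjusted threshold. The values for a list are a description, and no test was made of a list. All 16 microglial markers had a log2 fold change below 0 (median -0.28), but the median was 0.23 once control replicate 2 was dropped and 0.29 once E3–E12 diet replicate 1 was, so like that of the subunits it turned with either library left out. All 8 astrocyte markers were above 0 (median 0.89). Without control replicate 2, 6 of 8 were (median 0.64), and without control replicate 1, 7 of 8 (median 1.94). The groups were separate for Aldoc (log2 fold change 2.87, unadjusted p = 0.0709, adjusted p = 0.999 from limma). Its unadjusted p was under 0.05 with a pseudocount of 10, quantile normalization or a variance trend, and without control replicate 1 or 2. The endothelial and mural medians, 1.36 and 1.13, were -0.38 and -0.13 without control replicate 2. Of the 6 border macrophage markers 5 were below 0 (median -0.40), but without control replicate 2, 4 were above 0 (median 0.149). Pf4 was separate at -2.60 (unadjusted p = 0.0392, adjusted p = 0.999 from limma). That p was above 0.05 without control replicate 3, E3–E12 diet replicate 1 or 3 and with a variance trend. The medians of the neuronal, oligodendrocyte, choroid plexus, and erythroid and neutrophil lists were 0.29, -0.11, -1.32 and -0.76, in that order. Each changed sign with a library left out. Without control replicate 2 the neuronal median was -0.134 and the erythroid and neutrophil median 0.197. The oligodendrocyte median was 0.755 without control replicate 1, and the choroid plexus median 0.149 without E3–E12 diet replicate 2. The part of the marker levels in the subunit values was not tested.

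**Figure D2:**
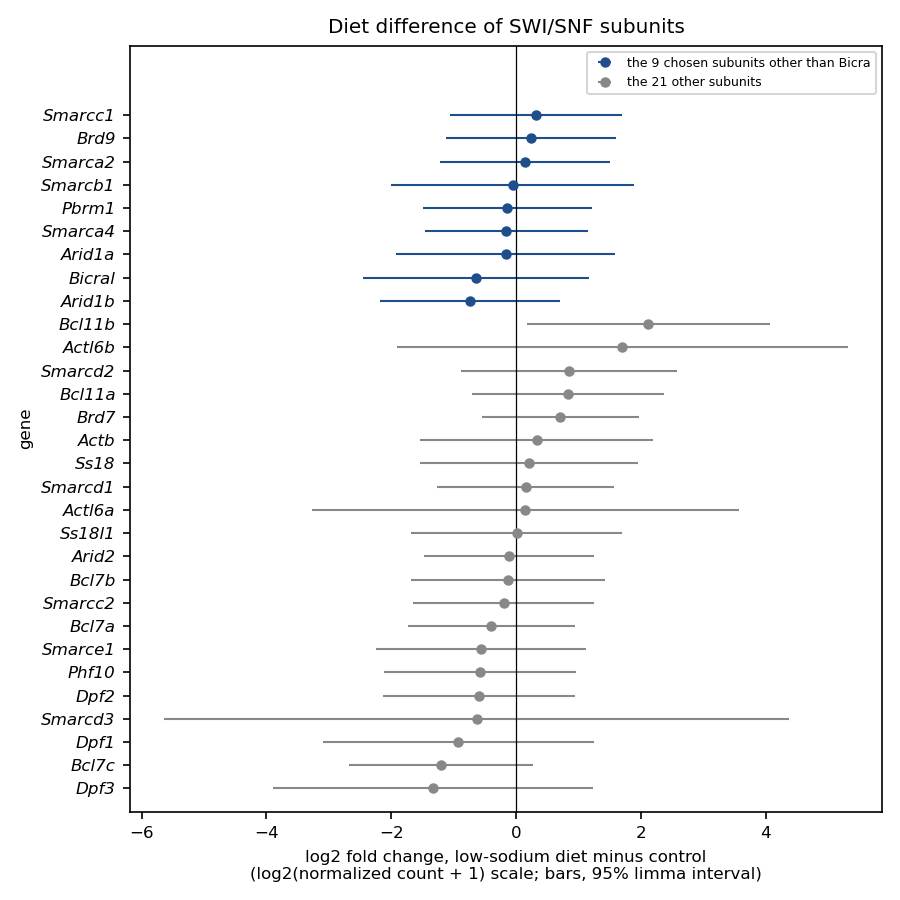
Log2 fold changes of E3–E12 diet mice against controls for the 9 subunits other than Bicra (blue) and the 21 other subunits (grey), 3 libraries per group, with 95% intervals from limma. The interval crosses 0 for each gene except Bcl11b, at 0.17 to 4.07, and Bicra is left out because it was not tested.

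The other 21 subunits of the 3 complexes all passed the filter. Of these, 0 passed the adjusted threshold, 10 had a log2 fold change above 0 and 11 below 0, and their median was -0.11. In 3 of the 21 no library of one group reached into the range of the other, against 5.9% of all genes. Brd7, a bromodomain subunit of PBAF, had 461, 539 and 627 normalized counts among controls and 857, 1005 and 797 among E3–E12 diet mice, with the lowest E3–E12 diet library above the highest control (log2 fold change 0.71, standard error 0.53). Bcl7c, of the BCL7 family of accessory subunits, had 449, 376 and 411 among controls and 117, 152 and 321 among E3–E12 diet mice (log2 fold change -1.20, standard error 0.62). Bcl11b, a zinc finger protein that joins BAF in neurons and T cells, had 14.4, 1.95 and 6.29 among controls and 16.5, 49.4 and 29.6 among E3–E12 diet mice. It was low in every library, and its log2 fold change of 2.12 (standard error 0.82, unadjusted p = 0.0372, adjusted p = 0.999 from limma) was the highest of the 21. That p was above 0.05 in several alternatives: it was 0.0762 with a pseudocount of 10, 0.142 with quantile normalization, 0.0512 with equal library totals, 0.0775 with a replicate block and 0.149 with a variance trend, a setting chosen after seeing the data. With 1 library left out it lay between 0.0201 and 0.119, and above 0.05 in 4 of the 6 cases.

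The next highest among the 21 were Actl6b and Smarcd2, and the lowest were Dpf3, Bcl7c and Dpf1. Smarcd2, a core subunit, had 174, 46.3 and 183 normalized counts among controls and 249.8, 195 and 180.1 among E3–E12 diet mice. The groups overlapped, and its log2 fold change of 0.85 (standard error 0.72) was 0.21 without control replicate 2.

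Neurons exchange several subunits for variants of their own, and transcripts of 4 such variants were measured beside the others. Actl6b, an actin-related protein that replaces ACTL6A as neurons leave the cell cycle, had 64.9, 0 and 17.7 normalized counts among controls and 19.9, 52.4 and 36.9 among E3–E12 diet mice. Its log2 fold change of 1.70 (standard error 1.51) was -0.01 without control replicate 2, the library at 0. DPF1 and DPF3 are finger proteins that take the place of DPF2 in neurons. Dpf1 had 21.6, 65.0 and 21.1 among controls and 46.8, 13.5 and 6 among E3–E12 diet mice (log2 fold change -0.92, standard error 0.91). Dpf3 had 45.6, 7.41 and 29.9 among controls and 28.6, 1.99 and 7.58 among E3–E12 diet mice (log2 fold change -1.33, standard error 1.07, unadjusted p = 0.256 from limma). With quantile normalization Dpf3 was at -1.92 with an unadjusted p of 0.014 (adjusted p = 1), and the p was above 0.05 in the other alternatives in which it was tested. With 1 library left out, log2 fold changes reached from -2.18 to -0.53 for Dpf3 and from -1.67 to -0.29 for Dpf1. Ss18l1, the variant of Ss18, had 313, 159 and 187 among controls and 439, 182 and 118 among E3–E12 diet mice (log2 fold change 0.01, standard error 0.71). In none of the 4 did the groups separate, and their median log2 fold change was -0.46. Neuronal markers were measured in the same libraries at the levels given for the marker lists, and their part in these values was not tested.

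Some subunits share sequence with other genes. For Smarcd3 44.0% of the 50-base windows occur in other genes, mostly in Chpf2 on the opposite strand, and for Smarce1 15.0%, mostly in copies such as Smarce1-ps1, so their values are uncertain. Among the 10 chosen genes other than Bicral, the share was at most 3.29%, for Smarcc1.

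Other chromatin regulators give the setting in which the subunits were measured. Of 12 ISWI genes, 21 CHD and NuRD genes, 23 INO80, SRCAP and TIP60 genes and 28 Polycomb genes, all passed the filter, and in the main limma fit 0 passed the adjusted threshold and 0 had an unadjusted p under 0.05 (smallest 0.0672, for Chd6, whose groups were separate at a log2 fold change of -1.31). The median log2 fold changes were -0.02 for ISWI, -0.24 for CHD and NuRD, -0.10 for INO80, SRCAP and TIP60, and -0.26 for Polycomb, beside -0.14 for the 9 SWI/SNF subunits other than Bicra. Separate groups were found for 2, 4, 0 and 1 genes of these lists, in that order, against the 5.9% of all genes. The highest and lowest log2 fold changes were 0.91 for Pole3 and -1.27 for Hmgxb4 among ISWI genes, and 1.16 for Chd5 and -2.92 for Gatad2b among CHD and NuRD genes. They were 0.93 for Ino80b and -3.02 for Yeats4 in the INO80, SRCAP and TIP60 list, and 2.23 for Eed and -3.00 for Rnf2 among Polycomb genes. These extremes moved with single libraries, and several were listed at 0 in some library. With 1 library left out they ranged from 0.35 to 1.58 for Pole3, -1.86 to -0.59 for Hmgxb4, -0.79 to 2.72 for Chd5, -5.63 to -0.97 for Gatad2b, 0.44 to 1.54 for Ino80b, -4.03 to -1.33 for Yeats4, 0.51 to 3.39 for Eed and -4.72 to -0.38 for Rnf2. Gatad2b, a NuRD subunit, was listed at 0 in control replicate 2 and in E3–E12 diet replicates 1 and 3, with 123 and 638 in the other controls and 183 in the remaining E3–E12 diet library. Rnf2, the E3 ligase RING1B of Polycomb, was listed at 0 in E3–E12 diet replicate 1 alone, with 407 and 129.7 in the other E3–E12 diet libraries and 203, 467 and 285 in the controls.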

How the data were processed

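The authors deposited 1 table of normalized counts per gene for the 6 libraries, a signal on a linear scale that is not whole reads. The authors' processing notes name FastQC, STAR, featureCounts, DESeq2 and the build GRCm38, with no versions. The table's name mentions sva, and no source used here says whether values were adjusted for surrogate variables. Of 26789 Ensembl identifiers, 26507 matched a gene symbol.

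Genes averaging 10 or more normalized counts were compared as log2(normalized count + 1) with limma 3.58.1 in R 4.3.3 (lmFit and eBayes, two-sided, Benjamini-Hochberg over all genes), tested first on simulated data. Bicra was left untested. Counts per kilobase used the union of annotated exons (GENCODE vM21, GRCm38), and 50-base windows of its transcripts were searched on both strands.

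The members and lists were chosen with earlier results of these data known. Named genes were all 10 members; of the other subunits the 3 highest and 3 lowest log2 fold changes, any whose groups do not overlap and every neuronal variant; the highest and lowest gene of each other list; and the 5 genes most like Bicra over the 6 libraries. Ribosomal protein, overlapping and marker genes were named beside them, some after their values were seen. A further ribosomal protein gene is not reported here. Alternatives covered the pseudocount, the filter, the scaling, a replicate block, a variance trend and each library left out.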

Additional observations from a re-analysis of the deposited data

How the results depend on the processing

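With 1 setting changed at a time, 0 of the 9 subunits other than Bicra had an unadjusted p under 0.05 in any of 14 alternatives run. The count past the adjusted threshold was 0 except under a stricter filter, a mean of 50 or more normalized counts, where 1 gene passed (Prdm4, named after its value was seen; adjusted p = 0.0597, with smallest adjusted p-values up to 0.999 in the other alternatives); fewer genes were tested there. Genes with an unadjusted p under 0.05 numbered 207 with that filter, 491 with quantile normalization, 268 with a variance trend (chosen after seeing the data), and 276 to 539 with 1 library left out. Genes whose groups do not overlap numbered 2257 to 3167 with 1 library left out, as fewer libraries overlap less often. The highest count with an unadjusted p under 0.05, 539, was without control replicate 1.

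Some log2 fold changes changed sign, and the cause was not tested. With quantile normalization they were 0.029 for Smarca4, 0.15 for Smarcb1, 0.054 for Arid1a, 0.041 for Pbrm1 and -0.008 for Ss18l1. With equal library totals that of Smarcb1 was 0.066, and the median of all genes moved from 0.09 to 0.20. With 1 library left out the ranges were -1.12 to 0.011 for Bicral, -0.13 to 0.29 for Smarca2, -0.30 to 0.023 for Smarca4, -0.52 to 0.68 for Smarcb1, -0.52 to 0.42 for Arid1a, -0.26 to 0.088 for Pbrm1, -0.01 to 3.01 for Actl6b, -0.52 to 0.42 for Ss18l1 and -0.79 to 2.72 for Chd5. The median of the 9 subunits other than Bicra ranged from -0.30 to 0.20.

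With the replicate number as a replicate block, the smallest adjusted p from limma was 0.98, so that 0 genes passed, and 468 genes were under an unadjusted p of 0.05. Bcl11b, the only subunit under 0.05 in the main fit (0.0372), was then at 0.0775. Deviations of same-numbered libraries from their group means correlated at 0.26, 0.035 and 0.142 over genes, and 5 of 6 libraries correlated best with their own number. Count models, planned for the case that whole reads could be recovered, were not run, because the values are not whole multiples of 1 step per library. The table does not give the counted reads behind each value, which limits what a listed 0 can show.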
